A study of Mus musculus with 33 samples.

Results

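Adhesion G protein-coupled receptors are cell-surface receptors of the Adgr gene family. Each joins a long extracellular region, which binds matrix proteins or proteins on neighbouring cells, to a membrane part that can couple to G proteins inside the cell. Most cleave themselves at a site next to the membrane, and the short stretch left behind can act as a tethered agonist. They are known for roles in vessels, glia, synapses and leukocytes, and their use by gut fibroblasts is less often described.

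The members were taken by name, as every gene row whose symbol is Adgr followed by 1 letter and a number, which gave 27 of the 31053 genes listed. Adgrl3 was also selected on measured values, its level in cells with at least 0.4% of UMIs from Adamdec1, so that level is given as a description without a test. Celsr1, Celsr2 and Celsr3 belong to the same receptor family under other symbols and were read beside the members as a separate list.

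The series holds 33 mouse samples, and the 3 single-cell RNA libraries of the colon were used here. The other samples were not used here. All 3 libraries came from untreated adult mice of both sexes that had been perfused, with the outer muscle layer of the colon taken off, the epithelium loosened with EDTA and the rest digested with collagenase. The whole mesenchyme library is 1 sample whose genotype is given as control, although the protocol text of all 3 libraries names the strain below. It was sorted for live cells without EpCAM and without CD45, which removes epithelium and leukocytes. The GFP-low group, 2 samples, came from PdgfraH2BeGFP mice (JAX strain 007669), which carry a nuclear green fluorescent protein at the Pdgfra gene, and was sorted without staining for a low level of that protein. No stain therefore removed leukocytes and epithelium from the GFP-low libraries, which rest on the sort for that protein alone. Endothelium, glia and pericytes are nearly absent from these libraries. Each library was loaded with 8000 cells. Nothing in the labels says whether the 2 GFP-low libraries came from separate animals, so their spread may be technical.

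A cell was a barcode with at least 1000 UMIs (counted RNA molecules), at least 500 genes and at most 20% of UMIs from mitochondrial genes. Whole mesenchyme kept 6793 cells, GFP-low replicate 1 kept 4834 and its partner replicate 2 kept 6025, with median depths of 4429, 6446.5 and 7025 UMIs. Whole mesenchyme shared 6 cell barcodes with GFP-low replicate 1 (4.83 by chance) and 11 with replicate 2 (6.02 by chance), and the GFP-low libraries shared 11 with each other (4.29 by chance).

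Cells were put in classes by the share of their UMIs that fell on fixed marker panels. The Adamdec1 class rests on 1 marker, at least 0.4% of UMIs from Adamdec1, and is called by that rule. The Cd81 class is fibroblasts at 0.3% or more on a panel of 9 genes that includes Cd81, Grem1, Pi16 and Ackr4. The Pdgfra-high class is named from a panel of 8 genes of subepithelial cells that includes Pdgfra, Bmp3, F3 and Sox6; Dmp1 and Il1rl1 led its cells below the Adamdec1 limit. Since 1245 of the Pdgfra-high cells of whole mesenchyme also passed the Adamdec1 limit and 161 did not, cells passing a known pair of gates were kept as classes of their own. A level is given as CPM, the usual depth-scaled unit, in which a gene's UMIs are divided by all UMIs of a class in 1 library, with its exact 95% Poisson interval. Intervals cover counting error only.

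Of the 27 members, 15 reached 10 CPM in at least 1 sum of 20 or more cells and 12 stayed below. Over the 3 libraries the UMI totals ran from 9539 for Adgrd1 and 8034 for Adgre5 down to 1 each for Adgrb3, Adgre4 and Adgrg7. Adgrf1, Adgrf3 and Adgrg4 had no UMI in any cell. The other members below 10 CPM were Adgra1, Adgrb2, Adgre1, Adgrf2, Adgrf4 and Adgrv1. Adgre1, which encodes the macrophage antigen F4/80, had 15 UMIs in all, and its level was at most 0.469 CPM in any class of 20 or more cells.

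**Figure D1:**
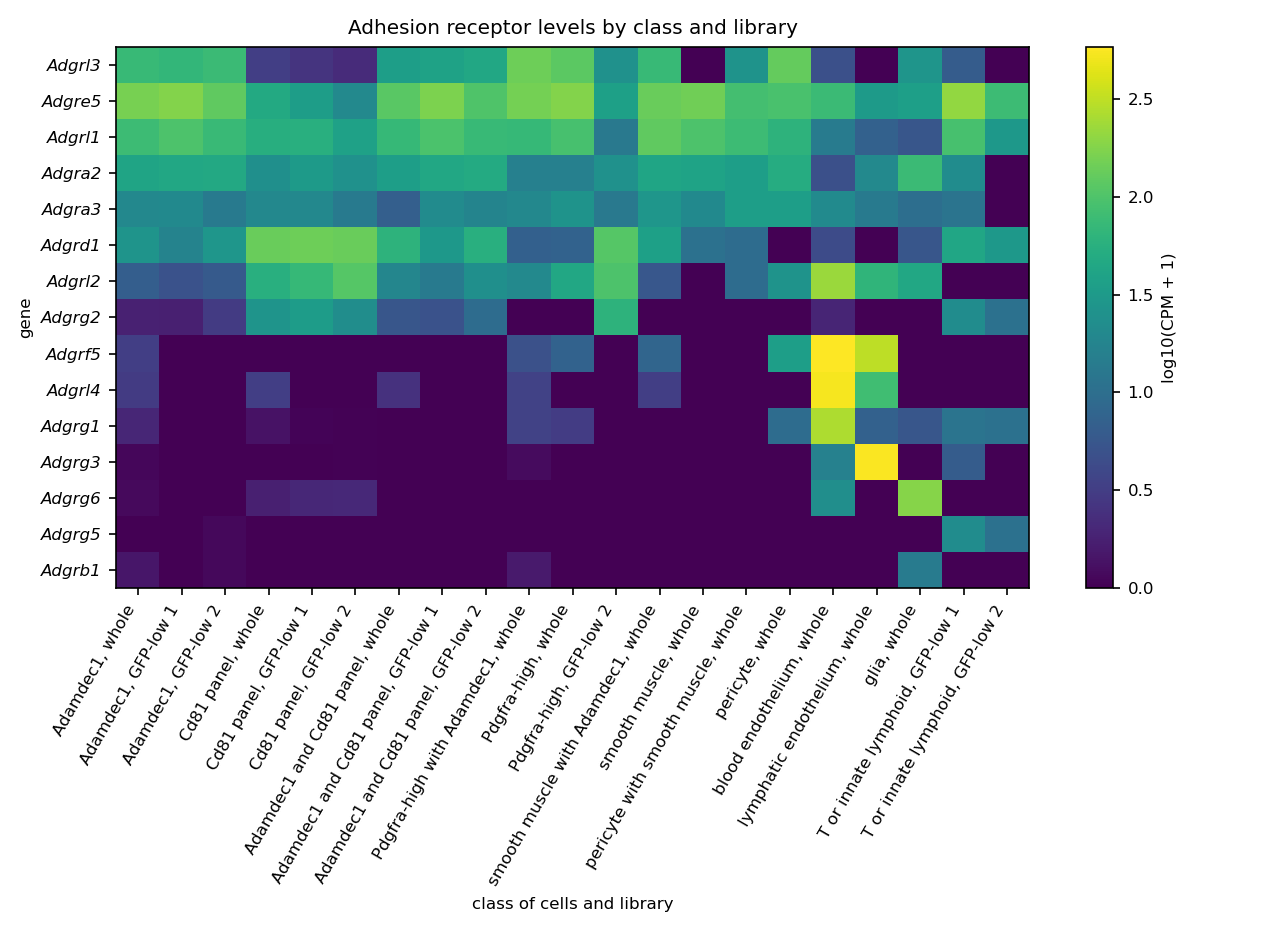
Level of the 15 members that reached 10 CPM, as log10(CPM + 1) by colour, with genes as rows and sums of at least 20 cells, by class and library, as columns. Adgrf5, Adgrl4 and Adgrg1 are brightest in blood endothelium, Adgrg3 is brightest in lymphatic endothelium, and Adgre5 and Adgrl1 are seen in nearly every column.

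Adgrl3, a latrophilin (a subfamily that binds Flrt and teneurin proteins on other cells), lies at chr5:81019085-81827825 in GRCm38.p6. In the Adamdec1 class it was at 71.4 CPM in whole mesenchyme (1182 UMIs in 3188 cells) and at 66.9 and 76.4 in the GFP-low replicates 1 and 2. In the Cd81 class it was at 2.25, 1.60 and 1.21 CPM. The classes do not overlap in any library, and the fitted log2 difference over the 3 libraries was 5.48, given as a description because this contrast chose the gene. Taking every cell at the Adamdec1 limit, whatever else it passed, the level was 85.9, 59.5 and 73.1 CPM.

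The level climbed with the Adamdec1 share below the limit, and in the GFP-low libraries it was higher still well above it. In whole mesenchyme it was 4.46 CPM in cells under 0.05%, 26.9 between 0.1% and 0.2%, and 73.2 (55.6 to 94.7) just below the limit, at 0.3% to 0.4%. Just above it, at 0.4% to 0.5%, it was 77.0 (61.2 to 95.7). Those bands held 37.6 and 48.3 CPM in the first GFP-low library, and 40.4 and 49.7 in the other, with overlapping intervals in each. In cells over 2% the level was 74.6 CPM in whole mesenchyme, and 66.7 and 93.7 (78.9 to 110) in the GFP-low replicates 1 and 2. The band just above 0.4% was thus the higher in each library, but overlapping intervals cannot show whether there is a step. In GFP-low replicate 2 the band over 2% lies apart from the one just above the limit (32.1 to 73.3).

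**Figure D2:**
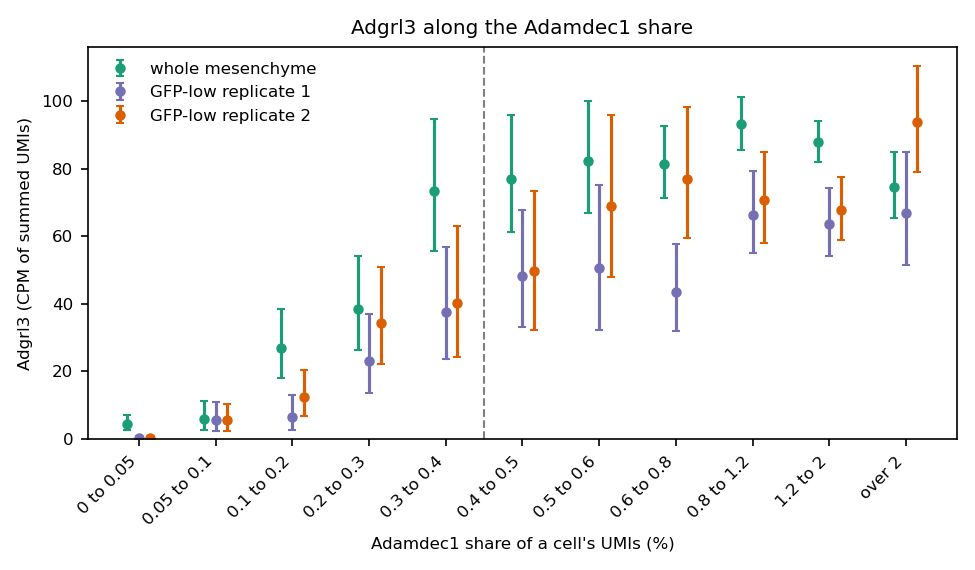
Adgrl3 level (CPM of summed UMIs, linear axis from 0) against the Adamdec1 share of a cell's UMIs in bands, for all cells of each library, with exact 95% Poisson intervals and a dashed line at 0.4%. In whole mesenchyme the points rise from 4.46 CPM to 73.2 CPM left of the line and lie between 74.6 and 93.1 CPM to its right.

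Adgrl3 was not confined to the Adamdec1 class. Its highest level was in the Pdgfra-high cells of whole mesenchyme that also passed the Adamdec1 limit. It was 142.2 CPM there (132 to 153, with 747 UMIs in 1245 cells). The order given here is that of whole mesenchyme alone, so it has no replicate. Pericytes followed with 127.9 CPM (71.6 to 211; 15 UMIs in 49 cells) and Pdgfra-high cells below the Adamdec1 limit with 116.9 (88.0 to 152). These 3 neighbours have overlapping intervals, while the first lies apart from the Adamdec1 class. Thinned to 1000 UMIs a cell, 16.6% of Pdgfra-high cells with Adamdec1 kept an Adgrl3 UMI against 7.43% of the Adamdec1 class, and without thinning the shares were 43.6% and 28.5%.

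Lower in the order stood smooth muscle with Adamdec1 at 71.2 CPM, cells passing both the Adamdec1 and Cd81 gates at 34.1, and glia at 26.7 on 6 UMIs. Blood endothelium held 3.75 CPM, in 0.842% of its 713 cells (median 2797 UMIs), and the Cd81 class of that library held a UMI in 1.31% of cells (median 6097). Barcodes of 1 to 100 UMIs, which hold mostly free RNA, carried Adgrl3 at 33.3 CPM in whole mesenchyme and at 3.93 and 10.9 in the GFP-low replicates 1 and 2, so the lowest class levels are within reach of free RNA. Lymphatic endothelium had 0 UMIs in 50 cells and smooth muscle outside the Adamdec1 gate had 0 in 29 cells. Taking 3 UMIs as the limit that a count of 0 allows, these classes could hold up to 18.9 and 29.3 CPM.

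Within the Adamdec1 class, Adgrl3 was higher in cells with a UMI of Wnt4, a secreted Wnt ligand, than in those without, in each library. The levels were 81.1 against 69.6 CPM in whole mesenchyme, and 76.7 against 64.3 and 117.7 against 66.6 in the GFP-low replicates 1 and 2. Among the 3 libraries the intervals are apart only in GFP-low replicate 2. This split and the other splits by a marker below were chosen after values had been seen and have no test.

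Across the 21 sums of at least 20 cells, the genes whose log2(CPM + 1) tracked Adgrl3 most closely by Pearson's r were Cmbl (0.907), Elovl6 (0.882), Milr1 (0.874), Lrp4 (0.804) and Etv1 (0.803). Elovl6 extends fatty acids, Lrp4 is a receptor of the low-density lipoprotein receptor family, and Etv1 is an ETS transcription factor. Sums of 1 library share depth and free RNA, so these values only describe the order.

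The sorting of CD81-positive and CD81-negative cells elsewhere in the series led to comparing the Adamdec1 class with the Cd81 class. These classes rest on RNA markers, so they need not match the sorted populations. Their difference was tested in sums per class and library with edgeR's quasi-likelihood test. The library was a block, and Benjamini-Hochberg adjustment was over 12327 genes. The test called 1733 genes (14.1%) higher in the Adamdec1 class and 1680 (13.6%) lower, 27.7% in either direction. In 26.7% of genes the 3 libraries of one class do not overlap those of the other. The fit and this share use sums scaled by edgeR's TMM method, while the CPM given as levels are unscaled. Besides Adgrl3, 9 members were abundant enough to be tested: 3 were higher, 3 were lower and 3 did not pass, with a median log2 difference of -0.07 against 0.003 over all genes. The other 17 members fell under the filter on low counts.

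Adgre5, the leukocyte-associated receptor CD97 that binds Cd55 and Thy1, had the largest positive difference among the 9 tested members, which leave out Adgrl3. It was at 156.5, 179.4 and 121.4 CPM in whole mesenchyme and GFP-low replicates 1 and 2, against 46.8, 33.3 and 18.9 in the Cd81 class. The classes do not overlap, and the log2 difference was 2.23 (SE 0.15, edgeR adjusted p = 6.1e-06, higher in 3 of 3 libraries). Adgre5 was also seen in classes other than leukocytes, at 151.9 CPM in Pdgfra-high cells with Adamdec1, 146.3 in smooth muscle, 93.8 in pericytes and 75.1 in blood endothelium. The few T or innate lymphoid cells held 207.0 CPM (39 UMIs, 42 cells) and 77.6 CPM (8 UMIs, 22 cells) in the GFP-low libraries. In the Adamdec1 class the panel of 7 T or innate lymphoid markers summed to 3.08 to 10.6 CPM, against 0.375 to 3.83 in the Cd81 class, and its part in the result was not tested.

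Adgrl1, a second latrophilin, was also higher in the Adamdec1 class, at 78.8, 97.8 and 74.7 CPM against 53.6, 55.1 and 37.6. The libraries of the classes do not overlap, and the log2 difference was 0.71 (SE 0.10, edgeR adjusted p = 5.35e-04). Adgra2, also called Gpr124, a co-receptor with Reck for Wnt7 ligands, was at 40.4, 44.3 and 45.6 CPM against 22.9, 30.8 and 24.2. Its log2 difference was 0.65 (SE 0.11, edgeR adjusted p = 0.0022), and the call was lost in cells thinned to 1000 UMIs (0.53, adjusted p = 0.084). Adgra2 had its highest level in glia, 75.5 CPM (44.0 to 121) on 17 UMIs, an interval that overlaps that of pericytes (18.8 to 111).

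Adgrd1, also called Gpr133, a receptor that raises cyclic AMP, went the other way. It was at 26.1, 16.1 and 27.3 CPM in the Adamdec1 class and at 135.6, 142.1 and 136.4 in the Cd81 class, with no overlap. The log2 difference was -2.66 (SE 0.16, edgeR adjusted p = 3.3e-06, lower in 3 of 3 libraries). Cells that passed no gate held Adgrd1 at 116.9, 182.5 and 181.2 CPM. These levels are above the Cd81 class in both GFP-low libraries and below it in whole mesenchyme.

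Adgrl2, another latrophilin, and Adgrg2, an orphan receptor best known from the epididymis, were lower by more. Adgrl2 was at 5.68, 4.03 and 5.0 CPM in the Adamdec1 class and at 54.3, 71.1 and 107.3 in the Cd81 class, a log2 difference of -3.95 (SE 0.22, edgeR adjusted p = 2.2e-06). Adgrg2 was at 0.785, 0.767 and 2.0 CPM against 26.2, 32.4 and 21.7, a log2 difference of -4.60 (SE 0.27, edgeR adjusted p = 3.1e-06). Neither gene's classes overlap, and the low side of Adgrg2 rests on 31 UMIs over 3 libraries. The tested latrophilins were thus divided: Adgrl1 was raised in the Adamdec1 class and Adgrl2 was lower there. Adgrl3 was selected on its level in Adamdec1 cells, so its place on the side of Adgrl1 adds nothing to this.

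Adgra3, Adgrb2 and Adgrv1 did not pass. Adgra3 was nearly even, at 18.6, 19.6 and 12.9 CPM against 18.7, 18.4 and 12.8. Its fitted log2 difference was -0.07 (SE 0.11, edgeR adjusted p = 0.73), on scaled sums that were slightly lower in the Adamdec1 class of each library. Adgrb2 (0.84, SE 0.42) and Adgrv1 (-0.48, SE 0.42) had 81 and 79 UMIs over both classes, and at this depth a difference of their size was not detectable.

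**Figure D3:**
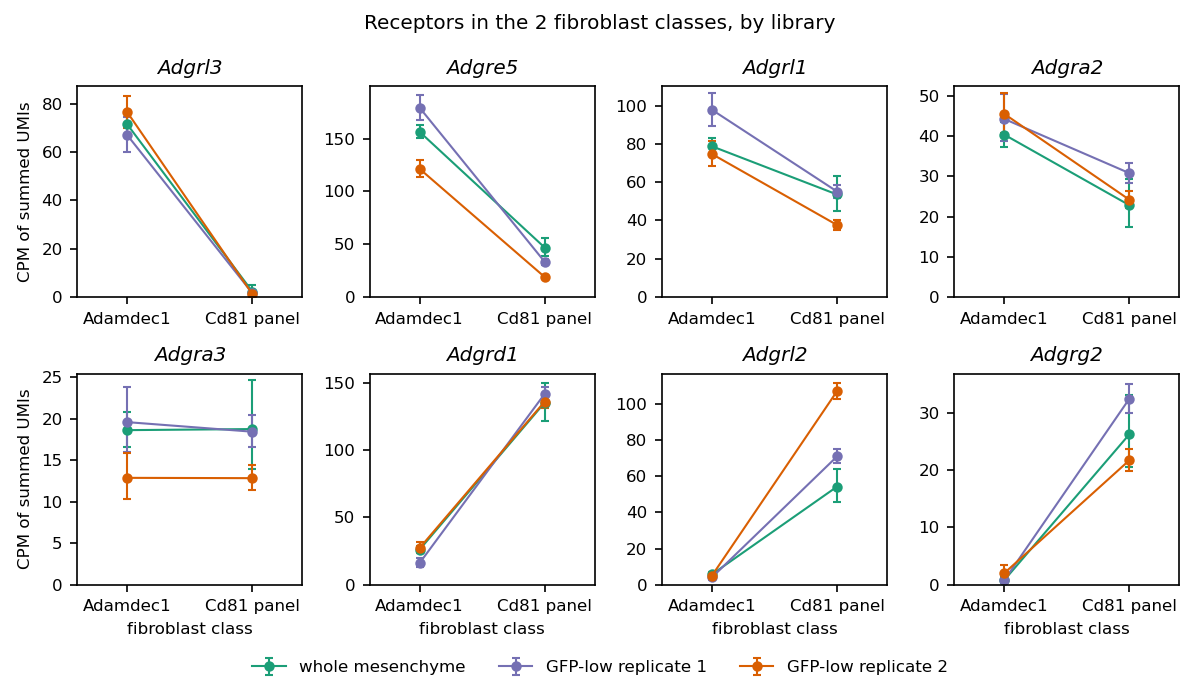
CPM of summed UMIs of 8 members in the Adamdec1 and Cd81 fibroblast classes, each line joining the 2 classes of 1 library, with exact 95% Poisson intervals; every axis starts at 0 and has its own scale. Adgrl3, Adgre5, Adgrl1 and Adgra2 slope down in all 3 libraries, Adgrd1, Adgrl2 and Adgrg2 slope up, and Adgra3 is flat.

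The Cd81 class was itself uneven for these receptors. Cells with a UMI of Pi16, a marker of fibroblasts of the outer layers and of vessels' surroundings, held Adgrd1 at 189.8, 228.1 and 219.1 CPM against 131.8, 132.4 and 131.7 in those without. Adgrg2 was at 63.3, 70.1 and 57.8 CPM against 23.6, 28.2 and 19.7. For Adgrg2 the intervals are apart in all 3 libraries, and for Adgrd1 in both GFP-low libraries but not in whole mesenchyme, where 26 cells had a Pi16 UMI. Adgrl2 did not share this direction: it was at 28.8, 45.7 and 100.2 CPM in the cells with Pi16 against 56.1, 73.9 and 107.7 in the others. Cells without a UMI of Grem1, the BMP antagonist, held more Adgrd1 than cells with one, 210.9 against 121.5, 200.1 against 113.6 and 198.9 against 122.6 CPM, with intervals apart in each library. By Cd81 itself, Adgrd1 was at 143.6 against 130.8, 147.7 against 137.9 and 135.8 against 136.7 CPM, with overlapping intervals in each library.

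Proteins known to bind these receptors were read from a list of 29 genes, of which 18 were tested in the same fit. Of the 18, 10 were higher in the Adamdec1 class, 6 lower and 2 did not pass, with a median log2 difference of 0.84. Over all genes tested, 14.1% were higher and 13.6% lower. Among the partners of latrophilins, Tenm3 (1.42, SE 0.11), Tenm4 (3.10, SE 0.39) and Flrt1 (4.11, SE 0.59) were higher, while Flrt2 (-3.93, SE 0.17) and Flrt3 (-2.91, SE 0.14) were lower. Flrt2 was at 6.95, 7.10 and 23.7 CPM in the Adamdec1 class and at 121.4, 138.1 and 238.3 in the Cd81 class. Unc5a (1.39, SE 0.19) and Unc5b (2.06, SE 0.23), netrin receptors that bind Flrt proteins, were higher. Tenm4, Flrt1 and C1ql1 (2.19, SE 0.41), a secreted relative of complement, rest on few UMIs: 14, 4 and 23 in the Cd81 class.

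Between the Adamdec1 and Cd81 classes, Cd55 and Thy1, ligands of Adgre5, were lower where the receptor was higher. T or innate lymphoid cells, which also held Adgre5, had Thy1 at 541.3 and 232.9 CPM in GFP-low replicates 1 and 2. Their Cd55 was at 233.5 and 116.5 CPM. Cd55, which shields cells from complement, was at 205.2, 243.8 and 266.0 CPM in the Adamdec1 class against 1069, 816.7 and 613.5 in the Cd81 class, a log2 difference of -1.87 (SE 0.18, edgeR adjusted p = 6.0e-05). Thy1 was lower by less (-0.61, SE 0.14, edgeR adjusted p = 0.011), its libraries overlap, and the call was lost with doubled gate limits (-0.19, adjusted p = 0.48) and in thinned cells (-0.33, adjusted p = 0.35). Prnp, a ligand of Adgrg6 (-1.38, SE 0.11), and Reck (-0.47, SE 0.11) were lower too, and the call of Reck was lost without GFP-low replicate 1 (-0.39, adjusted p = 0.074). Tgm2, a ligand of Adgrg1 (1.18, SE 0.11), the collagen chains Col4a1 (0.76, SE 0.10) and Col4a2 (0.91, SE 0.10), which Adgrg6 binds, and Ptk7, a ligand of Adgrd1 (1.13, SE 0.09), were higher. Prnp was far higher in glia of whole mesenchyme than in either fibroblast class, at 8535 CPM on 1921 UMIs. Adgrg6 itself was at only 0.181 and 0.749 CPM in the Adamdec1 and Cd81 classes of that library.

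Of the 12 G proteins and adaptors listed, all were tested: 3 were higher, 2 lower and 7 did not pass, with a median of -0.06. The shares over all genes tested were 14.1% higher and 13.6% lower. Gnai1, an inhibitory G protein subunit, was higher by 1.06 (SE 0.11) and the arrestin Arrb1 by 0.79 (SE 0.11). Elmo1, an adaptor of the Adgrb receptors in engulfment, was lower (-0.72, SE 0.11, edgeR adjusted p = 9.3e-04). Gna12 (0.32, SE 0.09, edgeR adjusted p = 0.034) and Gnaq (-0.31, SE 0.09, edgeR adjusted p = 0.032) passed narrowly. Leaving out any 1 library ended the call of Gna12 (adjusted p from 0.062 to 0.16), and leaving out GFP-low replicate 1 or GFP-low replicate 2 ended that of Gnaq (0.24 and 0.15).

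Endothelium came from whole mesenchyme alone, so its values have no replicate. In the 713 cells of blood endothelium, Adgrf5 was at 582.9 CPM (551 to 616), Adgrl4 at 537.4 (507 to 569) and Adgrg1 at 268.0 (246 to 291). Adgrf5 and Adgrl4, also called Eltd1, are receptors known from vessel walls. Outside endothelium these 3 genes were low: the Adamdec1 class of the same library held 2.3, 1.99 and 0.966 CPM, and pericytes held Adgrf5 at 34.1 CPM on 4 UMIs, beside 34.4 CPM of Adgrf5 and 28.9 CPM of Adgrl4 in barcodes of 1 to 100 UMIs, and no cell of the Adamdec1 class in either GFP-low library had a UMI of any of the 3. Adgrl2 was also at its highest here, 223.9 CPM (204 to 245).

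The 50 cells of lymphatic endothelium, which passed both the blood and the lymphatic endothelial gates, held a different set. Adgrg3, also called Gpr97, was at 561.0 CPM (451 to 690; 89 UMIs, in 84.0% of cells) against 15.5 (10.7 to 21.8) in blood endothelium. It was itself among the 10 leading genes of this class. Adgrl4 was lower in lymphatic than in blood endothelium, 81.9 CPM (43.6 to 140), as were Adgrg1 at 6.30 (0.160 to 35.1, 1 UMI) and Adgrf5 at 308.9 (228 to 408), each with an interval apart from that of blood endothelium. Celsr1 was seen here and hardly elsewhere, at 56.7 CPM on 9 UMIs.

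Adgrg5, Adgrg1 and Adgrg3 are neighbours on chromosome 8, within 123440 bases (chr8:94921811-95045250, GRCm38.p6), and their highest observed levels were in 3 different classes. Adgrg1 had its peak in blood endothelium and Adgrg3 in lymphatic endothelium. Adgrg5 was seen in T or innate lymphoid cells, at 21.2 CPM (5.78 to 54.3) and 9.71 (0.246 to 54.1) on 4 and 1 UMIs, and at 0 in blood and lymphatic endothelium. Its count of 0 still allows up to 25.6 CPM in pericytes and 29.3 in smooth muscle, so the class of its peak cannot be placed.

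Within blood endothelium, Adgrg6 marked out a small group. Of 24 cells with a UMI of Selp, an adhesion molecule of veins, 14 held Adgrg6 (58.3%, exact binomial interval 36.6% to 77.9%), with up to 7 UMIs in a cell. Of 689 cells without one, 6 held it (0.871%, 0.320% to 1.89%). The Selp cells were deeper, with a median of 3976 against 2768 UMIs, but as a level Adgrg6 was at 402.2 CPM (286 to 550) against 4.43 (2.02 to 8.41).

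Adgrl4 ran opposite, at 72.2 CPM (29.0 to 149) with Selp and 559.6 (528 to 593) without, while Adgrf5 was at 495.0 (365 to 656) and 587.1 (554 to 621). Adgrl2 was at 340.3 CPM (234 to 478) with Selp and 218.3 (199 to 240) without. In the 89 cells with a UMI of Car4, a capillary gene, Adgrl4 was at 741.2 CPM (641 to 852) against 508.3 (477 to 542), and Adgrl2 at 387.5 (316 to 470) against 200.5 (181 to 222).

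**Figure D4:**
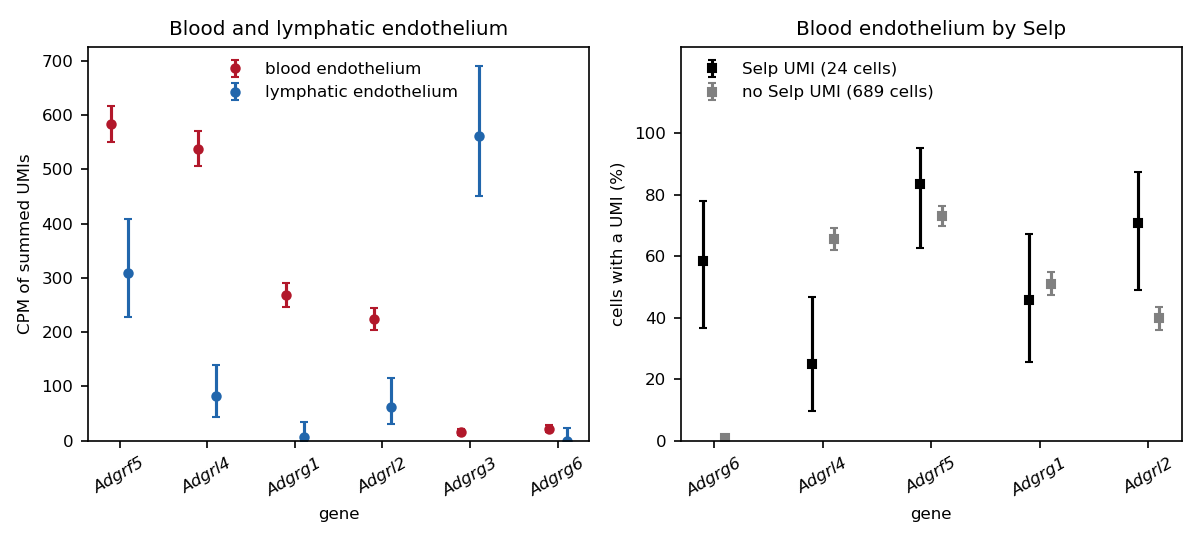
Left, CPM of summed UMIs of 6 members in blood and lymphatic endothelium of whole mesenchyme, with exact 95% Poisson intervals. Right, percent of blood endothelial cells with a UMI of 5 members, in 24 cells with and 689 cells without a Selp UMI, with exact 95% binomial intervals; Adgrg6 is at 58.3% against 0.871% and Adgrl4 at 25.0% against 65.7%.

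Glia, 59 cells, held Adgrg6 at 182.2 CPM (131 to 247; 41 UMIs, in 42.4% of cells). Adgrg6, also called Gpr126, is required for myelination by Schwann cells. Celsr2 was at 40.0 CPM in glia on 9 UMIs and under 2 CPM in both fibroblast classes. Adgrb1, a receptor for dying cells, reached 13.3 CPM in glia on 3 UMIs, too few to set against other classes. None of the Celsr genes was abundant enough to be tested.

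The RefSeq table of start sites holds windows for 20 of the 27 members, 24 windows in all. The 3 shown are of members whose first listed window lies wholly before the annotated gene and whose levels differ in pattern: Adgrl4 of blood endothelium, Adgrl1 of most classes and Adgra3, which was even between fibroblasts. Each is the 250 bases before the start in GRCm38.p6, 5′ to 3′ on the gene's strand, with capitals marking AGGAAG and GGGCGG on either strand (CTTCCT and CCGCCC when reversed). These motifs can overlap by an end base and were chosen after others had been looked at. For Adgrl3 all 3 windows fall inside the annotated gene and are not printed.

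Adgrl4, chr3:151437632-151437881, plus strand: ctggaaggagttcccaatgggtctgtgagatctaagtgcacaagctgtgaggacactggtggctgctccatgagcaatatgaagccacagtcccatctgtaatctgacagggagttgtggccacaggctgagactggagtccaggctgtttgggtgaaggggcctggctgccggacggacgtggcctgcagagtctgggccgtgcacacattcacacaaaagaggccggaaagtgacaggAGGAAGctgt
Adgrl1, chr8:83899848-83900097, plus strand: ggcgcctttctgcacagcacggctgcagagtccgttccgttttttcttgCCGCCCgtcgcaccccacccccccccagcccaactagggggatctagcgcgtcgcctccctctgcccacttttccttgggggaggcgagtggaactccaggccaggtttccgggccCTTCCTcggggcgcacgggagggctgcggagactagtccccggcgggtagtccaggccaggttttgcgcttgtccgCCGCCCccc
Adgra3, chr5:50058997-50059246, minus strand: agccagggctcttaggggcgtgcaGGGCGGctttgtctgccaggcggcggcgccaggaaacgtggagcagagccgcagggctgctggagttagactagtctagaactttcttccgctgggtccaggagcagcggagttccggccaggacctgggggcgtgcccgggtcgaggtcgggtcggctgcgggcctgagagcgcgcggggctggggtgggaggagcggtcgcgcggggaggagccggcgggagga

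AGGAAG is in the windows of Adgrl4 and Adgrl1 once each and not in that of Adgra3, and 29.5% of 32851 windows in the table hold it. GGGCGG is found 2 times for Adgrl1, once for Adgra3 and not for Adgrl4, against 32.7% of all windows. The G and C content was 56.8% for Adgrl4, 68.8% for Adgrl1 and 71.6% for Adgra3, with a median of 52.4% over the table. A match is a stretch of letters and not a shown binding site, and AGGAAG does not set the endothelial window apart from that of the broad Adgrl1.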

How the data were processed

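The 3 colon libraries are matrices of UMI counts as deposited by the authors, made with Cell Ranger 3.0.2 on mm10, per the submitters' processing notes. They hold all barcodes, and every value is a whole number. Cells, classes and CPM were computed here with Python 3.11.15, numpy 2.4.6, scipy 1.17.1 and pandas 2.3.3. Gate limits other than that of Adamdec1 were set from the distribution of panel shares, and cells passing several gates were left out except for the named pairs, which were added after the shares were seen. No doublet caller was run, and leaving out cells above 3 times the median UMIs was tried instead. Class sums of at least 20 cells were tested with edgeR 4.0.16 (R 4.3.3; filterByExpr, TMM, quasi-likelihood, threshold 0.05), with the library as block because both sums come from 1 preparation. Each SE is the log2 difference without its sign, divided by the square root of the test's F statistic. Gate markers were not tested. The script was tested on simulated data. Library totals were 41863444, 39190629 and 52313765 UMIs.

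Named with values are the members at 10 CPM or more in a sum of at least 20 cells, Adgre1, Adgrl3, the list genes called in the test, and the 5 genes most like Adgrl3 among those reaching 20 CPM. The members and the lists were chosen with earlier results of these data known. A few further genes and splits by a marker were chosen after their values were seen. With the library as block, p-values reflect how far the class difference varied among the libraries. The fit draws each gene's spread toward that of the other genes, so the p-values do not rest on that gene's 3 libraries alone. Whole mesenchyme and GFP-low differ in their sort. The labels do not name separate animals, so the spread among libraries may also be technical.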

Additional observations from a re-analysis of the deposited data

Results flagged for a closer look

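Adgrg7, a receptor with 1 UMI in all 17652 cells, had 11 UMIs in the barcodes of 1 to 100 UMIs of GFP-low replicate 1, or 2.70 CPM (exact Poisson interval 1.35 to 4.83). These barcodes are not part of any comparison above. Such barcodes held 0 UMIs of Adgrg7 in whole mesenchyme and in GFP-low replicate 2. The 5 epithelial markers of the panel summed to 328 CPM in the same barcodes of GFP-low replicate 1, against 4 CPM in whole mesenchyme and 10 CPM in GFP-low replicate 2, and their part in the result was not tested. No cell of that library had a UMI of Adgrg7.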

How the results depend on the processing

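The 6 calls among the members other than Adgrl3 kept their direction under all 14 alternatives, and a call was lost only for Adgra2, in thinned cells. In cells thinned to 1000 UMIs, 805 genes were higher and 886 lower. Without the replicate block, that is without pairing the 2 classes of a library, 864 were higher and 703 lower, and the members still gave 3 higher and 3 lower. Leaving out 1 library at a time gave 1306 to 1920 genes higher and 1267 to 2104 lower. For the members it gave 3 higher each time and 3 to 4 lower. With no filter on low counts, 22 members were tested, 4 higher and 4 lower, beside 2122 higher and 2084 lower of 19005 genes. DESeq2 1.42.0 called 3 members higher and 3 lower, beside 1262 higher and 1286 lower of 12327 genes. The Adgrl3 level in the Adamdec1 class of whole mesenchyme was 78.1 CPM with doubled gate limits, 66.2 with at most 10% mitochondrial UMIs and 85.9 with cells passing other gates kept. In GFP-low replicate 1 it was 78.0 CPM with halved gate limits (266 cells) and 59.5 with cells passing other gates kept. The cause of these shifts was not tested, except that thinning leaves fewer UMIs and genes to test. Among the partner and G protein genes, Arrb1, Col4a1, Gna12, Gnaq, Reck and Thy1 lost their call without the block. Small classes limit the rest: 29 to 59 cells for muscle, pericytes, lymphatic endothelium and glia.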
